A study of Mus musculus with 9 samples.

Results

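The D and E cyclins and the inhibitors of their kinases are the 10 mouse genes Ccnd1, Ccnd2, Ccnd3, Ccne1, Ccne2, Cdkn1a, Cdkn1b, Cdkn2a, Cdkn2b and Cdkn2c, which were taken by gene symbol from the 18193 genes with a probe set on the arrays. Their levels were compared between cells of the mouse embryonic fibroblast line NIH 3T3 that carried a retroviral short hairpin RNA (shRNA) against Ube2m, a hairpin against Ube2f or a control hairpin. Each group held 3 biological replicates, and total RNA was taken 5 days after transduction. In the labels on growth, the cells of all 9 samples, control included, are called cells that express Ube2f, with no word on whether a construct was added or how many hairpins were used per gene. A fall of RNA in every cell and a change in the mix of cells cannot be told apart in such bulk cultures. The products of Ube2m and Ube2f are E2 enzymes that load NEDD8, a small ubiquitin-like protein, onto cullins, and the series asks, going by its title, how this step is made specific for particular cullins. Of the 10 genes, 8 had a signal high enough to be tested, and Cdkn2a and Cdkn2b did not.

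D cyclins are the cyclins that a cell makes in answer to growth factors. They bind CDK4 and CDK6, and these kinases phosphorylate the retinoblastoma protein RB, which frees E2F factors to switch on genes for DNA replication. E cyclins bind CDK2 and drive entry into S phase. Inhibitors of the CIP/KIP family, p21 (Cdkn1a) and p27 (Cdkn1b), bind whole cyclin-CDK complexes, whereas the INK4 family, p16 (Cdkn2a), p15 (Cdkn2b) and p18 (Cdkn2c), binds CDK4 and CDK6. Cullin-RING ligases degrade cyclin E, p21 and p27 proteins, and have been described for D cyclins as well. The arrays measured RNA and not protein, so the values below say nothing of the protein levels of these targets.

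Each value is the deposited linear signal of a probe set, and tests were made on log2(signal + 16), so fold changes are on that scale. Where a gene had several probe sets, the brightest on average over all arrays stands for the gene and the others are given beside it. A gene was tested if its mean log2 value reached 6.12, a signal of 53.8, the median over the non-control probe sets. A difference passed at a limma adjusted p under 0.05, with the adjustment made over all 10613 genes tested. The signal of a probe set depends on its probes, so levels are compared between arrays and never between genes. The first 2 replicates of each group had a median signal of 53.1 to 58.3, and on replicate 3 it was 72.9 with Ube2m shRNA, 73.2 with Ube2f shRNA and 63.8 in control. The 3' over 5' signal of beta-actin, a sign of RNA quality, was 1.82 on control replicate 1 and 1.24 to 1.35 on the other arrays. Ube2f signal averaged 132 ± 13.2 with its own hairpin and 2539 ± 199 in control cells (SD, n = 3 arrays each), which is -4.11 as a log2 fold change. Other probe sets for Ube2f gave -4.12, -3.88 and -2.78. The dim ones, 1436254_at and 1455569_at, gave -1.55 and 0.20 (limma adjusted p = 0.110 and 0.903 as separate probe sets). Ube2m itself was not analysed here, since no probe set carried its name alone.

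With Ube2m shRNA, the brightest probe sets of 2 of the 3 D cyclins and of p21 read lower than in control cells. Of the 8 genes tested, 3 fell, Ccnd1, Ccnd3 and Cdkn1a, and 0 rose, where 9.71% of all genes tested passed in either direction, 6.12% lower and 3.59% higher. With the probe sets of each gene averaged, 0 of the 8 passed in this comparison, where 607 genes did. With Ube2f shRNA 0 of the 8 passed by limma, where 5.19% of all genes tested did, 2.23% higher and 2.96% lower. Ccnd2 and Ccne1 passed once replicate 3 was set apart as a batch. In that fit 1461 of the 10613 genes passed, against 551 in the main fit. Before adjustment, Ccnd2, Ccne1 and Cdkn1b had a p under 0.05 with Ube2f shRNA against control, where 20.2% of all genes did. The targeted groups differed from each other in 5 of the 8 genes, with Ccnd1, Ccnd2, Ccnd3 and Cdkn1b lower and Ccne1 higher with Ube2m shRNA than with Ube2f shRNA, where 15.8% of all genes tested passed, 9.38% lower and 6.37% higher. Groups whose arrays did not overlap were seen in 4 of the 8 genes for Ube2m shRNA and control (29.7% of all genes), in 2 for Ube2f shRNA and control (23.2%) and in 6 for Ube2m and Ube2f shRNA (34.4%). The median log2 fold change of the 8 genes was -0.18 with Ube2m shRNA against control, 0.10 with Ube2f shRNA against control and -0.38 between Ube2m and Ube2f shRNA. Over all genes tested these medians were -0.04, 0.01 and -0.04. Both comparisons with control use the same control arrays, so their values are not independent of each other.

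**Figure D1:**
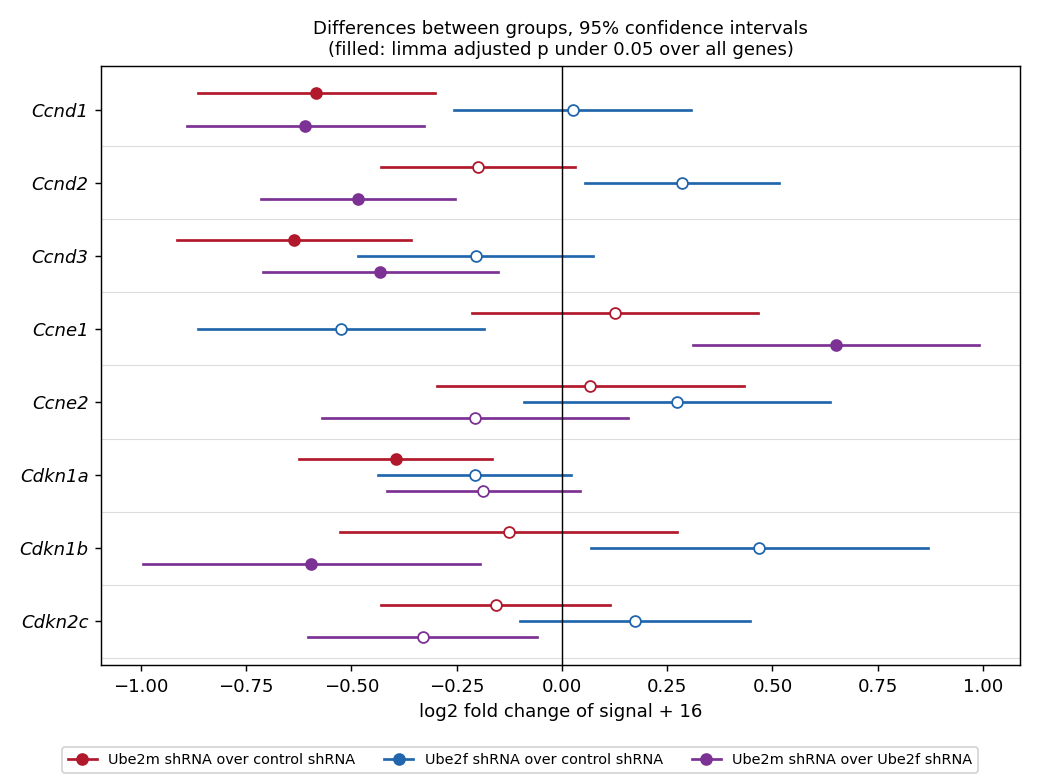
Log2 fold changes, on log2(signal + 16), of the 8 tested genes in the comparisons of Ube2m shRNA with control, Ube2f shRNA with control and Ube2m with Ube2f shRNA, with 95% confidence intervals from the limma fit over 9 arrays. Filled points pass a limma adjusted p under 0.05, and they are Ccnd1, Ccnd3 and Cdkn1a in the first comparison, none in the second, and the 3 D cyclins, Ccne1 and Cdkn1b in the last.

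Promoter sequences are shown for the 4 genes that passed in some comparison and had a window in RefSeq: Ccnd3, Cdkn1a and Cdkn1b, which were lower with Ube2m shRNA in a comparison, and Ccne1, which was higher. The windows are the 250 bases before the transcript start in RefSeq (build GRCm38.p6), read 5′ to 3′ on the strand of the gene. Capitals mark the GC box GGGCGG or its reverse complement, letters that SP1-type factors bind. RefSeq windows were matched for 7 of the 10 genes, and where a gene had several starts the window with the most CG dinucleotides is shown. They lie at chr17:47593217-47593466 on the plus strand for Ccnd3, chr7:38107491-38107740 on the minus strand for Ccne1, chr17:29093519-29093768 on the plus strand for Cdkn1a, and chr6:134920151-134920400 on the plus strand for Cdkn1b.
Ccnd3: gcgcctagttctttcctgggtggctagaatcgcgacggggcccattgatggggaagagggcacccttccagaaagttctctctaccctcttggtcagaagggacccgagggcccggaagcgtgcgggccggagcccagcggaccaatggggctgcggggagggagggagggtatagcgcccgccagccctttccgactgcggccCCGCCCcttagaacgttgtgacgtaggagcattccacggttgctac
Ccne1: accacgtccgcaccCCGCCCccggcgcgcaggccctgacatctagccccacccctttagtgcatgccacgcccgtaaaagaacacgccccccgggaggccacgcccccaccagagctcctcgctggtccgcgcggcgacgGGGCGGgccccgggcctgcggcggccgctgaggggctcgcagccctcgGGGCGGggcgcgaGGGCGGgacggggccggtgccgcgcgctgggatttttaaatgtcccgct
Cdkn1a: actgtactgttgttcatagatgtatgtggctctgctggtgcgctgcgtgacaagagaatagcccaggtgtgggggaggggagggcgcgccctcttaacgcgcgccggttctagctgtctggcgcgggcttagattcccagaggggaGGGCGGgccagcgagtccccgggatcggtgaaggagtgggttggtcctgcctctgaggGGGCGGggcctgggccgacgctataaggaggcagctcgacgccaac
Cdkn1b: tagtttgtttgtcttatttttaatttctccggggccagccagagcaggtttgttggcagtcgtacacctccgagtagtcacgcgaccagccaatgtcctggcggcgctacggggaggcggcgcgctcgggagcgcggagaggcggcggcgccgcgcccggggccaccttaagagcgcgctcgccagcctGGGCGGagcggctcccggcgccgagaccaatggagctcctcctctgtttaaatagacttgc
The Ccne1 window held 4 GC boxes, the Cdkn1a window 2 and the Ccnd3 and Cdkn1b windows 1 each, and 32.7% of all 32851 mouse windows of the same length held at least 1. CCAAT was found once in the Ccnd3 window and 2 times in the Cdkn1b window, and 33.8% of all windows held it. TATAA was found in the Cdkn1a window, and 22.8% of all windows held it. The E2F letters TTTCCCGC, TTTCGCGC, TTTGCCGC and TTTGGCGC (in 1.86% of all windows), the E box CACGTG (6.02%) and the antioxidant element TGACNNNGC (10.2%) were in none of the 4. All letters were searched on both strands, and GC boxes may overlap other motifs. Of the windows not shown, the second one of Ccnd3 held 2 GC boxes and 1 antioxidant element, and that of Cdkn1a 0 GC boxes and 1 TATAA. The shown windows were picked for CG content and the windows behind the shares were not, so no enrichment is read from them, and a match is not a binding site.

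Cyclin D1, the best known of the D cyclins and the partner of CDK4 and CDK6 in fibroblasts, had a lower signal with the Ube2m hairpin on its brightest probe set. Ccnd1 signal was 3682, 3520 and 4753 with Ube2m shRNA, 6014, 5865 and 6228 with Ube2f shRNA, and 6807, 5261 and 5814 in control cells. All 3 Ube2m arrays lay below the other 6, and the Ube2f arrays lay within the range of the control arrays. The mean of 3985 ± 670 with Ube2m shRNA was 66.9% of the 5961 ± 783 in control (SD, n = 3 each), a log2 fold change of -0.58 (SE 0.13, limma adjusted p = 0.0156). With Ube2f shRNA the mean was 6036 ± 182, a log2 difference from control of 0.03 (95% interval -0.26 to 0.31, limma adjusted p = 0.942). Between Ube2m and Ube2f shRNA the log2 fold change was -0.61 (SE 0.13, limma adjusted p = 0.00719). It passed in all 24 alternative analyses, between -0.74 and -0.53. The comparison with control did not pass without Ube2m replicate 1 (limma adjusted p = 0.0733), Ube2m replicate 2 (0.0812) or control replicate 1 (0.0722), nor with beta-actin ratio as covariate (0.0723). In replicates 1 and 2 alone its log2 fold change was -0.73, and on replicate 3 the difference was -0.29.

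The other probe sets for Ccnd1 did not all follow. The probe set 1448698_at read 2689, 2639 and 2366 with Ube2m shRNA, 4150, 4615 and 4066 with Ube2f shRNA and 3494, 3258 and 4655 in control, again with the Ube2m arrays lowest. In a fit of 22519 separate probe sets it fell with Ube2m shRNA by 0.55 on the log2 scale against control (limma adjusted p = 0.0437), where 4.45% of probe sets passed. The probe set 1417419_at read 1779, 1629 and 2226 with Ube2m shRNA, 2180, 3093 and 2917 with Ube2f shRNA and 1215, 1450 and 2075 in control. Here the control arrays were the lowest on average, and the log2 difference of Ube2m shRNA from control was 0.27 (limma adjusted p = 0.517) and that of Ube2f shRNA 0.80 (0.0636). Between Ube2m and Ube2f shRNA all 3 probe sets were lower with Ube2m, by log2 values of -0.61, -0.73 and -0.53, the last not passing (limma adjusted p = 0.140). With the 3 probe sets averaged the difference of Ube2m shRNA from control was -0.29 (limma adjusted p = 0.201). Which transcripts each probe set reports was not tested.

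Cyclin D2 had a higher signal with the Ube2f than with the Ube2m hairpin. Ccnd2 signal was 5708, 6239 and 6203 with Ube2m shRNA, 7704, 8730 and 9006 with Ube2f shRNA, and 6354, 6790 and 7754 in control. The Ube2m arrays lay below all others, and the lowest Ube2f array was just below the highest control array. Between Ube2m and Ube2f shRNA the log2 fold change was -0.48 (SE 0.11, limma adjusted p = 0.0086), 71.3% of the Ube2f level. Neither targeted group passed against control, with log2 differences of -0.20 for Ube2m shRNA (95% interval -0.43 to 0.03, limma adjusted p = 0.275) and 0.28 for Ube2f shRNA (0.05 to 0.52, 0.151). With replicate 3 as a batch term the Ube2f difference passed (limma adjusted p = 0.0369). The difference between the hairpins passed whichever 1 array was left out, and was -0.46 in replicates 1 and 2 alone and -0.54 on replicate 3. With each array centred on its median it was -0.51 and did not pass (limma adjusted p = 0.085).

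All 7 probe sets for Ccnd2 were lower with Ube2m than with Ube2f shRNA, by log2 values of -0.90 to -0.39, and 3 of them passed as separate probe sets, where 9.53% of probe sets did. Against control they did not move as 1. The probe set 1434745_at read 5015, 5170 and 5045 with Ube2m shRNA and 8223, 6477 and 7088 in control, a fall of 0.51 on the log2 scale (limma adjusted p = 0.018), while the other 6 gave -0.21 to 0.63. The dim probe set 1416123_at read 220, 181.6 and 231.9 with Ube2f shRNA against 50, 91.8 and 78.7 in control, a log2 fold change of 1.37 (limma adjusted p = 0.0454), where 2.89% of probe sets passed. With the 7 probe sets averaged, the difference of Ube2f shRNA from control was 0.57 and passed (limma adjusted p = 0.029).

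Cyclin D3, the third partner of CDK4 and CDK6, was lower with the Ube2m hairpin than in both other groups. Ccnd3 signal was 1284, 1113 and 1443 with Ube2m shRNA, 1470, 1862 and 1866 with Ube2f shRNA, and 1943, 1928 and 2096 in control. The 3 groups did not overlap, with the Ube2m arrays lowest and the control arrays highest. The mean of 1280 ± 165 with Ube2m shRNA was 64.4% of the 1989 ± 93.3 in control (SD, n = 3 each), a log2 fold change of -0.64 (SE 0.13, limma adjusted p = 0.0096). The mean with Ube2f shRNA was 1732 ± 227, a log2 difference from control of -0.21 (95% interval -0.48 to 0.07, limma adjusted p = 0.405). Between Ube2m and Ube2f shRNA the log2 fold change was -0.43 (SE 0.13, limma adjusted p = 0.0384). The fall against control was -0.69 in replicates 1 and 2 alone and -0.53 on replicate 3, and did not pass without Ube2m replicate 2 (-0.54, limma adjusted p = 0.0576). The difference between the hairpins passed in 12 of all 24 alternatives, and not when Ube2m replicate 1 or 2, Ube2f replicate 2 or 3 or control replicate 2 was left out (limma adjusted p up to 0.175). The second probe set, 1444323_at, read 93.5, 109.5 and 49.3 with Ube2m shRNA, 131.4, 161.8 and 144.5 with Ube2f shRNA and 144.1, 76.6 and 119.2 in control, and the remaining one, 1438805_at, averaged 17.1 and had no usable signal. With all 3 averaged the difference of Ube2m shRNA from control was -0.34 (limma adjusted p = 0.299).

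**Figure D2:**
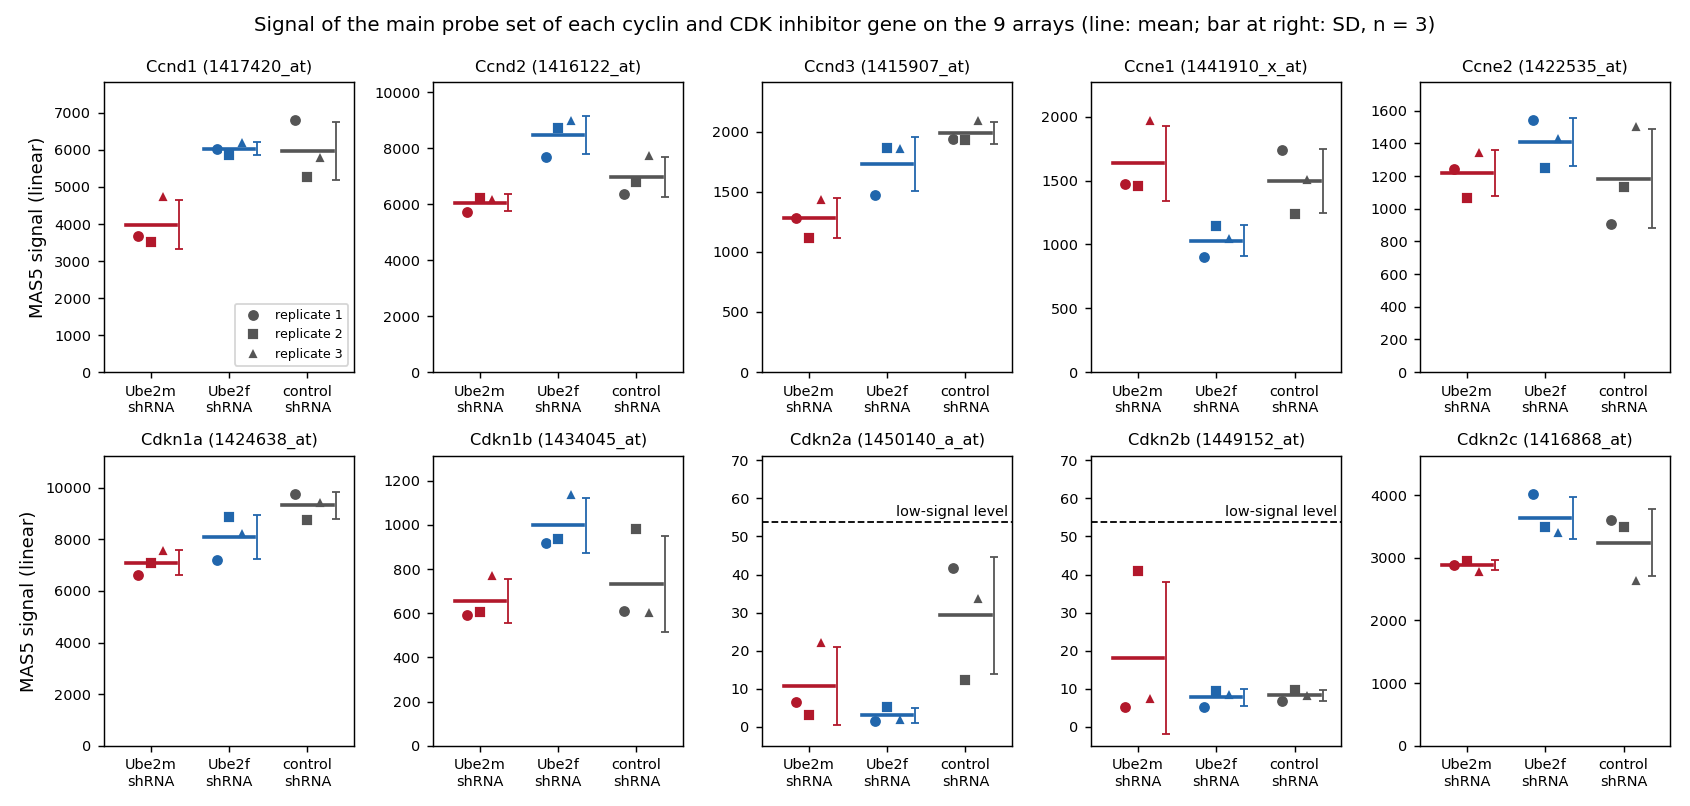
Signal (linear scale, arbitrary units) of the main probe set of each of the 10 genes on every array, with Ube2m shRNA, Ube2f shRNA and control from left to right, points for arrays and bars for the mean and SD (n = 3). The Ube2m points of Ccnd1, Ccnd2 and Ccnd3 lie below all other points of the gene, and Cdkn2a and Cdkn2b stay below the low-signal level of 53.8, drawn as a line.

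Cyclin E1, which activates CDK2 at the entry into S phase, differed between the hairpins in the direction opposite to the D cyclins. Ccne1 signal was 1472, 1461 and 1975 with Ube2m shRNA, 900.4, 1145 and 1048 with Ube2f shRNA, and 1742, 1241 and 1511 in control. The Ube2f arrays lay below all others, while the Ube2m and control arrays overlapped. The mean of 1636 ± 294 with Ube2m shRNA was 159% of the 1031 ± 123 with Ube2f shRNA (SD, n = 3 each), a log2 fold change of 0.65 (SE 0.16, limma adjusted p = 0.0139). This difference was 0.52 in replicates 1 and 2 alone and 0.90 on replicate 3, and did not pass without Ube2m replicate 3 (0.51, limma adjusted p = 0.0507) or Ube2f replicate 1 (0.56, 0.0682). Against the control mean of 1498 ± 251, Ube2f shRNA gave 68.8%, a log2 difference of -0.53 that did not pass (95% interval -0.86 to -0.19, limma adjusted p = 0.0761). It was -0.94, -0.11 and -0.52 on replicates 1, 2 and 3, and passed without control replicate 2 (-0.65, limma adjusted p = 0.0464) or without Ube2m replicate 3, which enters through the shared estimate of the spread (0.0485), and with replicate 3 as a batch term (0.0218). Ube2m shRNA against control gave a log2 difference of 0.13 (95% interval -0.21 to 0.46, limma adjusted p = 0.688). The second probe set, 1416492_at, read 796.4, 832.9 and 905.5 with Ube2m shRNA, 533.7, 521.6 and 516.3 with Ube2f shRNA and 832.4, 550.7 and 714.7 in control. It also rose with Ube2m over Ube2f shRNA, by a log2 value of 0.67 (limma adjusted p = 0.0175), and its Ube2f arrays were again the lowest.

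Cyclin E2, the second partner of CDK2, gave no difference that passed. Ccne2 signal, from its single probe set, was 1245, 1066 and 1348 with Ube2m shRNA, 1542, 1251 and 1431 with Ube2f shRNA, and 908, 1133 and 1507 in control. All groups overlapped, and the control arrays spread the widest. The log2 differences were 0.07 for Ube2m shRNA against control (95% interval -0.30 to 0.43), 0.27 for Ube2f shRNA against control (-0.09 to 0.64) and -0.21 for Ube2m against Ube2f shRNA (-0.57 to 0.16).

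The p21 inhibitor is a target of p53 and stops cells in G1, and its brightest probe set read lower with the Ube2m hairpin. Cdkn1a signal was 6612, 7062 and 7581 with Ube2m shRNA, 7186, 8843 and 8227 with Ube2f shRNA, and 9757, 8747 and 9432 in control. The Ube2m arrays lay below all control arrays, and the Ube2f arrays overlapped both other groups. The mean of 7085 ± 485 with Ube2m shRNA was 76.1% of the 9312 ± 516 in control (SD, n = 3 each), a log2 fold change of -0.39 (SE 0.11, limma adjusted p = 0.0349). With Ube2f shRNA the mean was 8086 ± 838, a log2 difference from control of -0.21 (95% interval -0.44 to 0.02, limma adjusted p = 0.299), and between Ube2m and Ube2f shRNA the difference was -0.19 (-0.42 to 0.04, 0.273). The fall with Ube2m shRNA was -0.43 in replicates 1 and 2 alone and -0.31 on replicate 3. It did not pass when Ube2m replicate 1 or 2 or any of the control arrays was left out, with limma adjusted p up to 0.15. It also did not pass with each array centred on its median (0.139) or with beta-actin ratio as covariate (0.117). It passed in 13 of all 24 alternatives.

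The second probe set for Cdkn1a, 1421679_a_at, gave no such fall. It read 2828, 2900 and 1831 with Ube2m shRNA, 3336, 3100 and 2517 with Ube2f shRNA, and 1780, 2494 and 2402 in control. Its log2 differences from control were 0.16 for Ube2m shRNA and 0.43 for Ube2f shRNA. With both probe sets averaged the difference of Ube2m shRNA from control was -0.12 (limma adjusted p = 0.603).

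The p27 inhibitor, which holds resting cells out of the cycle, differed between the hairpins. Cdkn1b signal was 592.9, 605.9 and 771.4 with Ube2m shRNA, 916.7, 936.7 and 1140 with Ube2f shRNA, and 611.7, 980.6 and 604 in control. The Ube2m arrays lay below the Ube2f arrays, and control replicate 2 stood far from the other control arrays, which lay among the Ube2m values. The mean of 657 ± 99.5 with Ube2m shRNA was 65.8% of the 998 ± 124 with Ube2f shRNA (SD, n = 3 each), a log2 fold change of -0.59 (SE 0.18, limma adjusted p = 0.0456), and it was -0.62 in replicates 1 and 2 alone and -0.55 on replicate 3. It passed in 13 of all 24 alternatives, and not when Ube2m replicate 1 or 2 or any of the Ube2f arrays was left out (limma adjusted p up to 0.151). Against the control mean of 732 ± 215, the log2 difference was -0.13 for Ube2m shRNA (95% interval -0.53 to 0.27, limma adjusted p = 0.739) and 0.47 for Ube2f shRNA (0.07 to 0.87, 0.173). Without control replicate 2 the Ube2f difference was 0.69 and passed (limma adjusted p = 0.0309). The second probe set, 1419497_at, averaged 31.5 and had no usable signal, and with both averaged the difference between the hairpins was -0.14 (limma adjusted p = 0.796).

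**Figure D3:**
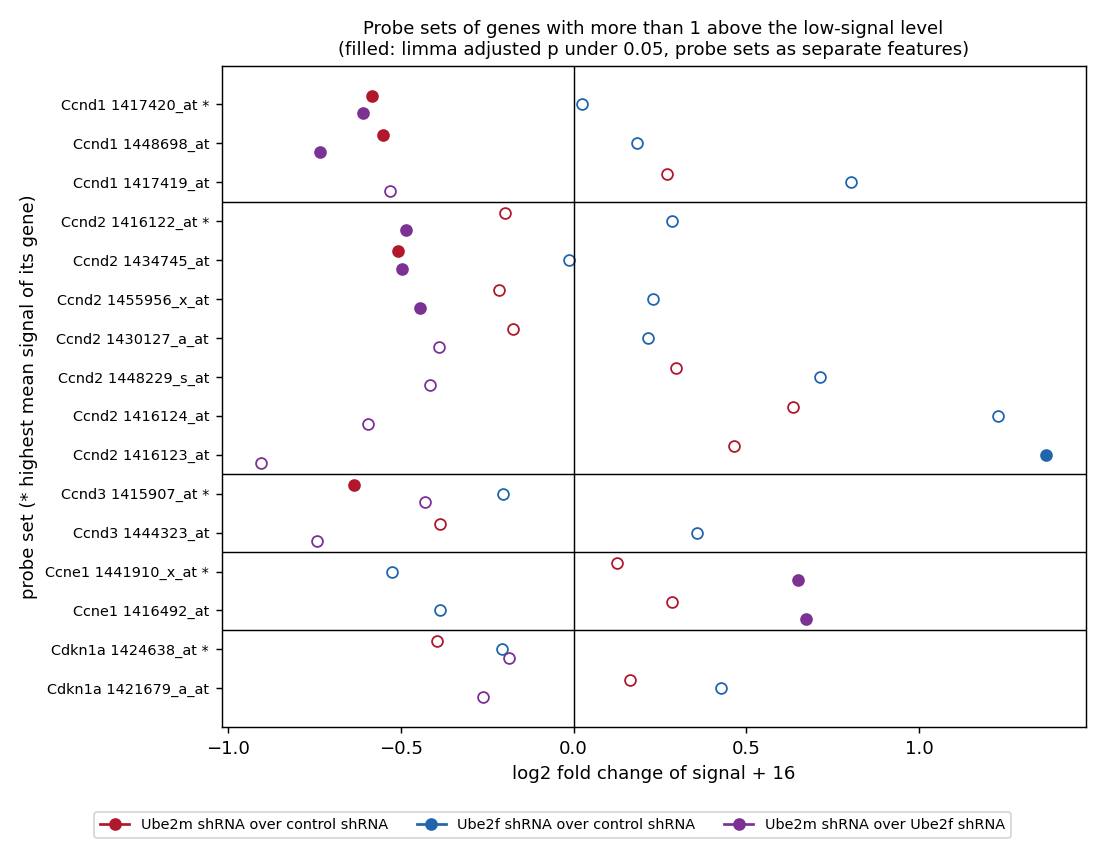
Log2 fold changes, as separate probe sets, of every probe set at or above the low-signal level for genes with more than 1 such probe set, in the comparisons of Ube2m shRNA with control, Ube2f shRNA with control and Ube2m with Ube2f shRNA. Filled points pass among the 22519 probe sets fitted separately, and * marks the main probe set. Against control the probe sets of Ccnd1, Ccnd2 and Cdkn1a point both ways with Ube2m shRNA, while between the hairpins all probe sets of Ccnd1, Ccnd2 and Ccnd3 are lower and both of Ccne1 are higher with Ube2m.

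The INK4 inhibitors differed most in whether they had a signal at all. Cdkn2a, whose locus NIH 3T3 cells are known to have lost, read 6.6, 3.1 and 22.3 with Ube2m shRNA, 1.5, 5.3 and 2.1 with Ube2f shRNA, and 41.8, 12.2 and 33.8 in control. Cdkn2b read 5.3, 41 and 7.6 with Ube2m shRNA, 5.2, 9.5 and 8.6 with Ube2f shRNA, and 6.7, 9.6 and 8.4 in control. Every array of both genes lay below the low-signal level of 53.8, and their means over the 9 arrays were 14.3 and 11.3. Probe sets of 18 genes that other tissues use, such as insulin and rhodopsin genes, had mean signals of 6.31 to 57.9 with a median of 22.8, so Cdkn2a and Cdkn2b lay within the range of genes that fibroblasts are not known to use. The Ube2f arrays of Cdkn2a lay below its control arrays, but at signals this low the values have no usable order, and neither gene was tested. Of the inhibitors outside the 10 genes, Cdkn1c (p57) also had no usable signal (mean 14.6), whereas Cdkn2d (p19) averaged 1191 and passed in no comparison.

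The p18 inhibitor was the INK4 member of the set with a signal. Cdkn2c signal was 2894, 2953 and 2798 with Ube2m shRNA, 4021, 3487 and 3405 with Ube2f shRNA, and 3605, 3489 and 2639 in control. The Ube2m arrays lay below the Ube2f arrays, and the control arrays overlapped both groups. Between Ube2m and Ube2f shRNA the log2 difference was -0.33 (95% interval -0.60 to -0.06, limma adjusted p = 0.099), which did not pass. It passed in 5 of the 24 alternatives, among them with the replicate number as a block (limma adjusted p = 0.0254), without control replicate 3 (0.0373) and in replicates 1 and 2 alone (-0.36, 0.0246). Against control the differences were -0.16 for Ube2m shRNA (-0.43 to 0.12) and 0.17 for Ube2f shRNA (-0.10 to 0.45).

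Cdk4, Cdk6 and Cdk2, the kinases that D and E cyclins activate, gave log2 differences between Ube2m shRNA and control of -0.04, -0.05 and 0.51, and none of the 3 passed in any comparison. Of 12 CDKs and CDK regulators tested, 0 passed by limma in either comparison with control, where 9.71% of all genes did with Ube2m and 5.19% with Ube2f shRNA, and 1 passed between the hairpins, where 15.8% did. That one was Cdk7, the partner of cyclin H and part of the kinase that activates other CDKs, which averaged 3011 ± 345 with Ube2m shRNA and 1717 ± 191 with Ube2f shRNA, a log2 fold change of 0.80 (SE 0.14, limma adjusted p = 0.00207). Ccna2, Ccnb2, Ccnf (cyclin F) and Cdk1 were also tested, while no probe set carried the name of Ccnb1 alone. Of these 4, Ccna2 and Cdk1 were higher with Ube2m than with Ube2f shRNA, by log2 values of 0.36 (limma adjusted p = 0.0389) and 0.37 (0.041). For each there were 6 arrays whose removal ended the call. Against control 0 of these 4 passed.

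Among the pocket proteins that D cyclin kinases phosphorylate, the relatives of RB were lower with Ube2m than with Ube2f shRNA, as the D cyclins were. Rbl1 (p107) averaged 927 ± 36.8 with Ube2m shRNA and 1658 ± 154 with Ube2f shRNA (SD, n = 3 each), a log2 fold change of -0.83 (SE 0.11, limma adjusted p = 0.000272). Rbl2 (p130) averaged 289 ± 19.3 with Ube2m shRNA and 515 ± 61.2 with Ube2f shRNA, a log2 fold change of -0.79 (SE 0.15, limma adjusted p = 0.00349). Rb1 itself was higher with Ube2m shRNA, at 1105 ± 62.4 against 786 ± 153 with Ube2f shRNA (0.50, limma adjusted p = 0.0256), a call that ended with the removal of any of 5 arrays. Of the 17 tested genes of the RB and E2F family, 2 rose and 3 fell between Ube2m and Ube2f shRNA, 3 rose and 1 fell with Ube2m shRNA against control, and 0 passed with Ube2f shRNA against control. Over all genes tested 15.8%, 9.71% and 5.19% passed in these comparisons. Against control, Lin54 (0.60, limma adjusted p = 0.00908), E2f2 (0.87, 0.0378) and Rbbp4 (0.37, 0.0463) rose with Ube2m shRNA, and Rbl1 fell (-0.48, 0.0154). Each of these calls was lost on removal of at least 1 array. E2f1 was among those that fell between the hairpins (-0.59, limma adjusted p = 0.0350), a call that ended with the removal of any of 5 arrays. Its direction turned in 2 of the 14 alternatives other than leaving out an array. Of 24 tested E2F targets of DNA replication, the genes that follow RB phosphorylation, 1 fell with Ube2m shRNA against control, where 9.71% of all genes passed. With Ube2f shRNA against control and between the hairpins 0 of the 24 passed, where 5.19% and 15.8% of all genes did. The gene that fell was Mcm2, a subunit of the replicative helicase, with a log2 fold change of -0.40 (limma adjusted p = 0.0267) that did not pass on removal of any of 4 arrays. The median log2 fold change of these 24 genes was -0.02 with Ube2m shRNA against control, -0.05 with Ube2f shRNA against control and 0.02 between the hairpins, against -0.04, 0.01 and -0.04 over all genes.

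Of 19 tested parts of the ubiquitin ligases that act on these proteins, 2 rose and 4 fell with Ube2m relative to Ube2f shRNA, 1 rose and 2 fell with Ube2m shRNA against control, and 1 rose and 1 fell with Ube2f shRNA against control. Over all genes tested 15.8%, 9.71% and 5.19% passed in these comparisons, in either direction. Skp2, the F-box protein that brings p27 to its ligase, averaged 1633 ± 78.9 with Ube2m shRNA and 2660 ± 107 with Ube2f shRNA, a log2 fold change of -0.70 (SE 0.10, limma adjusted p = 0.000448). Fbxo4, an F-box protein described for cyclin D1, averaged 518 ± 37.5 with Ube2m shRNA and 1104 ± 163 with Ube2f shRNA (-1.06, limma adjusted p = 0.000324). Dtl, the cullin 4 receptor that targets p21 during S phase, averaged 574 ± 68 with Ube2f shRNA and 1066 ± 56.4 in control, a log2 fold change of -0.88 (SE 0.12, limma adjusted p = 0.00113), and with Ube2m shRNA it was higher than with Ube2f shRNA (0.66, limma adjusted p = 0.00246). With the probe sets of each gene averaged, the calls given above for Cdk7, Ccna2, Cdk1, Rbl1, Rb1, E2f1, Mcm2, Fbxo4 and Dtl were lost, and the Dtl difference between Ube2f shRNA and control changed its direction.

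Of 22 tested factors known to act on the transcription of these genes, 3 fell and 0 rose with Ube2m shRNA against control, 1 rose and 1 fell with Ube2f shRNA against control, and 1 rose and 5 fell with Ube2m relative to Ube2f shRNA. The shares over all genes tested were 9.71%, 5.19% and 15.8%. The 3 that fell with Ube2m shRNA against control were Klf4, Id1 and Id2. Klf4, which activates Cdkn1a, averaged 4587 ± 672 with Ube2m shRNA and 8826 ± 302 in control (SD, n = 3 each), a log2 fold change of -0.95 (SE 0.11, limma adjusted p = 0.000302). Id1 averaged 2209 ± 82 with Ube2m shRNA and 3590 ± 444 in control (-0.69, limma adjusted p = 0.00218), and Id2 averaged 2117 ± 359 with Ube2m shRNA and 3516 ± 544 in control (-0.73, limma adjusted p = 0.00727). The Id proteins block E-box factors that induce inhibitor genes. All 3 were also lower with Ube2m than with Ube2f shRNA, with log2 fold changes of -1.03, -0.96 and -1.25. Jun, which activates Ccnd1, averaged 2567 ± 224 with Ube2m shRNA and 4049 ± 240 with Ube2f shRNA (-0.66, limma adjusted p = 0.00593). The calls of Jun between the hairpins and of Id2 against control were lost with probe sets averaged, and both Id2 calls when probe sets marked as matching more than 1 transcript were dropped.

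Other targets of p53 did not share 1 direction with Cdkn1a. Of 19 tested, 3 rose and 2 fell with Ube2m shRNA, 1 fell with Ube2f shRNA, and 2 rose with Ube2m relative to Ube2f shRNA, where 9.71%, 5.19% and 15.8% of all genes tested passed. Zmat3 averaged 1428 ± 142 with Ube2m shRNA, 1398 ± 63.9 with Ube2f shRNA and 2426 ± 305 in control (SD, n = 3 each), with log2 fold changes of -0.76 and -0.78 from control (limma adjusted p = 0.00226 and 0.00263). Phlda3 fell with Ube2m shRNA by 0.58 on the log2 scale (limma adjusted p = 0.00509), whereas Tnfrsf10b, a death receptor, was higher at 356 ± 52.8 with Ube2m shRNA and 191 ± 38.2 in control (0.85, limma adjusted p = 0.0129). The call of Phlda3 was lost with arrays centred on their median, and that of Tnfrsf10b against control without Ube2m replicate 1 or 2 or control replicate 1 and with beta-actin ratio as covariate. Mdm2, the p53 ligase and target, gave log2 differences of -0.03 with Ube2m shRNA and -0.30 with Ube2f shRNA, and neither passed.

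**Figure D4:**
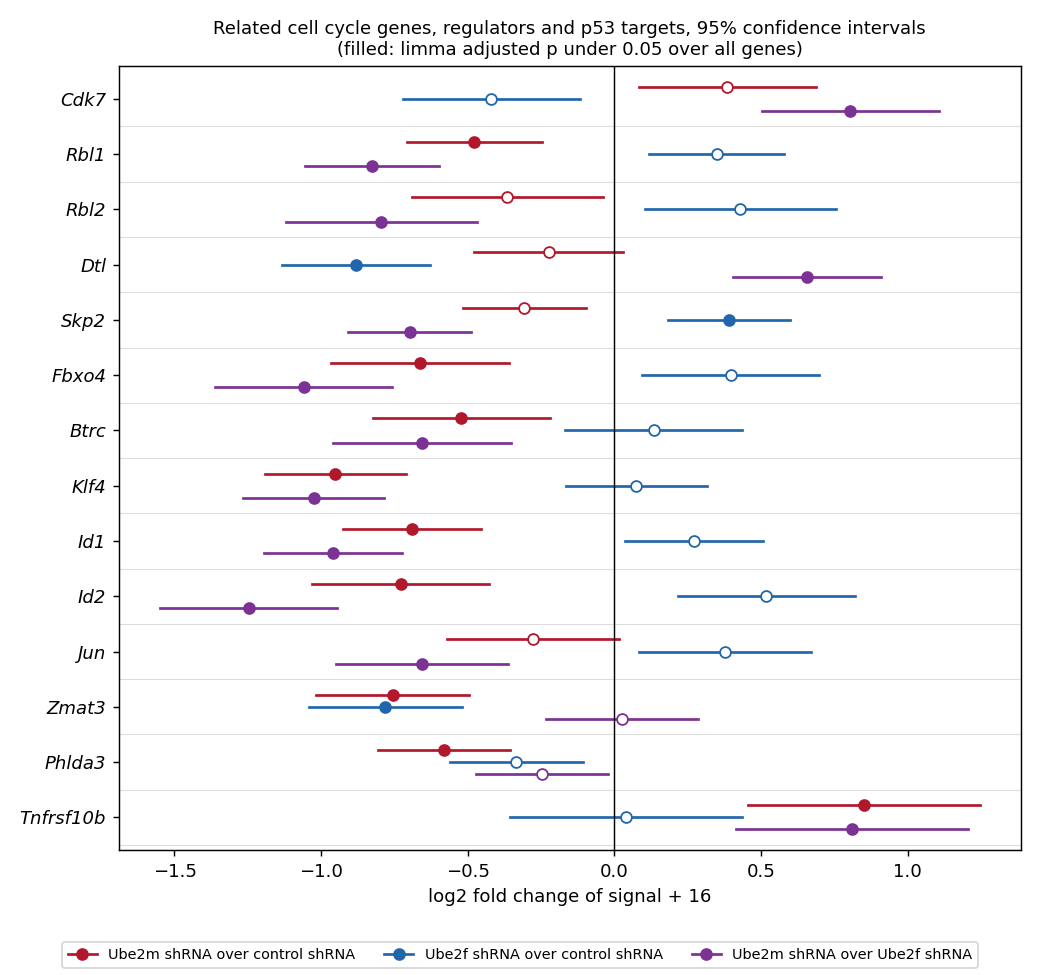
Log2 fold changes, on log2(signal + 16), of 14 related genes that held at least 1 call when any 1 array was left out, in the comparisons of Ube2m shRNA with control, Ube2f shRNA with control and Ube2m with Ube2f shRNA (95% confidence intervals from the limma fit over 9 arrays, filled points pass a limma adjusted p under 0.05). Klf4, Id1 and Id2 are lower with Ube2m shRNA than in both other groups, Dtl is lower with Ube2f shRNA, and Zmat3 is lower with both hairpins than in control.

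Markers of other cell types were read on the same arrays. All 12 fibroblast markers were at or above the low-signal level, with sums of 170114 to 191922 with Ube2m shRNA, 194616 to 219416 with Ube2f shRNA and 182116 to 217872 in control. The brightest probe sets carry this sum. Of the 12, 3 fell with Ube2m shRNA against control (Col5a1, Thy1 and Lox), where 9.71% of all genes tested passed in either direction. With Ube2f shRNA against control Pdgfra rose (0.72, limma adjusted p = 0.00997) and Lox fell (-0.51, 0.00872), where 5.19% passed. Between the hairpins 4 were lower with Ube2m shRNA, among them Pdgfra (-0.96, limma adjusted p = 0.000578) and Col5a1 (-0.69, 0.000356), where 15.8% passed. Of the 5 endothelial and 3 adipocyte markers 0 reached the level, and of 6 macrophage markers 3 did. These were Cd14 (mean 426), Lyz2 (177) and Csf1r (151), while Ptprc was at 12.3, and Cd14 was higher with Ube2m than with Ube2f shRNA (0.52, limma adjusted p = 0.0294). The sum of all 6 macrophage markers was 850.2 to 1080 with Ube2m shRNA, 728.7 to 777.4 with Ube2f shRNA and 884.6 to 945.7 in control. Of 6 epithelial markers 3 reached the level, chiefly Krt14. The sum of all 6 was 5729 to 6452 with Ube2m shRNA, 2678 to 4167 with Ube2f shRNA and 3166 to 5319 in control. Only Krt14 among them passed, higher with Ube2m than with Ube2f shRNA (0.98, limma adjusted p = 0.00599). Of 6 skeletal muscle markers 2 reached the level, chiefly Acta1. The sum of all 6 was 1029 to 1250 with Ube2m shRNA, 616.2 to 716.2 with Ube2f shRNA and 619 to 886.8 in control. Only Acta1 among them passed, higher with Ube2m shRNA than with Ube2f shRNA (0.97, limma adjusted p = 0.00253) and than in control (0.68, 0.0278). The part of such markers in the cyclin and inhibitor differences was not tested.

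The genes whose pattern over the 9 arrays was most like that of each gene past the threshold were read off by Pearson's r of log2 values, as a description. The 9 arrays share the 3 groups, so such a likeness includes the group differences. For Ccnd1 they were Lpcat2 (0.976), Smap2 (0.972) and Inpp5e (0.971), and Ube2t was the most opposite (-0.981). For Ccnd2 they were Hif1a (0.970), Lyrm2 (0.965) and Tti1 (0.962), with Crip2 opposite (-0.970). Those of Ccnd3 were Pprc1 (0.977), Lhfp (0.957) and Evi5l (0.945), with Ercc6l opposite (-0.962). Ccne1 was nearest to Shb (0.975), Spns3 (0.950) and Tfe3 (0.945), and farthest from Fkbp7 (-0.978). Cdkn1a was nearest to Lmnb2 (0.962), Ccnyl1 (0.961) and E130309D02Rik (0.960), with Lin54 opposite (-0.966), and Cdkn1b to Trnp1 (0.956), Tjp1 (0.950) and Mppe1 (0.949), with Ap3b2 opposite (-0.920). Within the set, Ccnd3 and Cdkn1a were most alike (0.91), followed by Ccnd1 with Ccnd3 (0.84), and Ccne1 ran opposite to Ccnd2 (-0.69) and Cdkn1b (-0.69).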

How the data were processed

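RNA of 9 NIH 3T3 cultures was measured on 1-colour Affymetrix arrays from 6 ug of total RNA, per the labels' protocols. The deposited values are intensity on a linear scale, made with MAS5 per the submitters' processing notes, with no version or detection calls stated. The mean signal of each array, trimmed by 2% at both ends, was 500, so that each had been scaled by 1 factor. For arrays no depth is counted, and their number limits the precision.

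Of 45101 probe sets, 64 controls, 932 assigned to several genes and 9160 without a gene name were left out, and gene names came from the platform's annotation, which can be old. The remaining 34945 probe sets name 18193 genes. Of each gene the probe set with the highest mean log2(signal + 16) was kept, and 10613 genes were tested with limma 3.58.1 in R 4.3.3 (1 mean per group over all 9 arrays, eBayes with an intensity trend, two-sided, Benjamini-Hochberg). No pair of arrays of a group held the same values. With 3 arrays a group, the smallest p of an exact permutation test is 0.1, and none was used. The fit was checked on simulated data.

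The 10 genes, the lists of related genes and the tests were chosen with earlier results of these data known. By plan, all 10 genes, the targets, and the 3 most and 1 least alike genes were to be named. Also planned were the related genes past the threshold with the smallest p (up to 6 per list and comparison, or the first 3). Not all of these related genes are named. Of the related genes the text gives mainly those whose call passed without any 1 array, a choice made after their values were seen. Replicate numbers in the labels were tested as a block. The deviations of same-numbered Ube2m and Ube2f arrays correlated (0.201, 0.211 and 0.557), while those with control arrays did not all exceed 0.1. The main fit did not pair the arrays in any comparison, and the replicate block was run only as an alternative. Alternatives concerned the added constant, the filter, the choice of probe sets, scaling, the arrays fitted, block, batch, RNA quality, moderation and leaving out each array. The fit of separate probe sets was added after the data were seen. Promoters and motifs were searched in RefSeq windows.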

Additional observations from a re-analysis of the deposited data

How the results depend on the processing

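Over 24 alternatives for each gene of the set (23 for counts over all genes), including 9 that leave out 1 array, the difference of Ccnd1 between Ube2m and Ube2f shRNA kept its direction and passed in all of them. The cause of each change was not tested.

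Genes past the threshold with Ube2m shRNA against control numbered 1031 (381 higher, 650 lower), against 607 with probe sets averaged, 525 with arrays centred on their median (124 higher, 401 lower), 1866 with the replicate block, 2118 with replicate 3 as a batch term, 1747 in replicates 1 and 2 alone and 448 with beta-actin ratio as covariate. With Ube2f shRNA against control they numbered 551 (237 higher, 314 lower), against 271 averaged, 222 median centred (50 higher, 172 lower), 350 with only the 2 groups fitted, 1225 with the block, 1461 with the batch term, 1121 in replicates 1 and 2 and 249 with the beta-actin ratio. Between Ube2m and Ube2f shRNA they numbered 1672, against 1109 averaged, 868 median centred and 2714 with the batch term. Leaving out 1 array gave 388 to 1177, 195 to 583 and 1017 to 1813 genes in the 3 comparisons.

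Of the 8 cyclin and inhibitor genes tested, 3, 0 and 5 passed in these comparisons. With Ube2m shRNA against control 0 passed with probe sets averaged and 1 with the beta-actin ratio. With Ube2f shRNA against control 1 passed averaged (Ccnd2), and 2 each with the replicate block and the batch term (Ccnd2 and Ccne1, limma adjusted p = 0.0428 and 0.0312 under the block). Between the hairpins 3 passed without a filter, averaged, with quantile normalization, without an eBayes trend and as separate probe sets, and 2 median centred. Leaving out 1 array gave 0 to 3, 0 to 2 and 3 to 6. The block changed no other call of the set than those of Ccnd2, Ccne1 and Cdkn2c.

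Among the 8 genes, the directions that turned belonged to differences that had not passed. With probe sets averaged the log2 differences were 0.042 (Ccnd2) and 0.24 (Cdkn1b) for Ube2m shRNA against control and 0.11 (Cdkn1a) for Ube2f shRNA against control. Median centring gave -0.019 (Ccne2, Ube2m) and -0.039 (Ccnd1, Ube2f), replicates 1 and 2 alone -0.0039 (Ccne1, Ube2m) and -0.011 (Ccnd1, Ube2f), and the beta-actin ratio -0.073 (Ccne2, Ube2m). Without 1 array the ranges were -0.017 to 0.24 (Ccne1), -0.11 to 0.26 (Ccne2) and -0.25 to 0.10 (Cdkn1b) for Ube2m shRNA, and -0.060 to 0.13 (Ccnd1) for Ube2f shRNA, all against control.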
